A study of Mus musculus with 4 samples.

Results

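The genes described here are 43 genes that drive DNA replication and the cell cycle, and the measurement is open chromatin at their promoters and around them in mouse T cells polarized with or without IL-4. They were chosen by name for their known roles, out of 21938 protein-coding genes of the GENCODE vM21 annotation of mm10. They fall into 6 groups by role: 14 genes of the pre-replication complex and the replicative helicase, 6 of DNA synthesis, 7 cyclins and kinases of G1 and S phase, 3 E2F transcription factors, 9 genes of G2 and mitosis, and 4 inhibitors of cyclin-dependent kinases (CDKs). All 43 names matched a single gene record.

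The cells came from spleens of male C57BL/6 mice aged 7 weeks, were sorted as naive CD4+ cells by the surface phenotype CD62LhighCD44lowCD25-, and were stimulated for 48 h. The stimuli were anti-CD3 bound to the plate at 5 µg/ml and anti-CD28 at 1 µg/ml. Human TGF-β1 was added at 5 ng/ml, and mouse IL-2 was present at 10 ng/ml. These agents, which turn naive cells toward induced regulatory T cells, were common to all samples. The iTreg group had no further cytokine and the iTreg+IL-4 group received mouse IL-4 at 15 ng/ml, with 2 libraries in each group. The samples are described as pooled and biologically independent, and no library of resting naive cells was analysed here, so none of the values below shows a change from the unstimulated state.

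ATAC-seq finds open chromatin by letting a transposase cut DNA that nucleosomes leave free. The data were 1 list of MACS2 peaks for each library, with 77064 and 56645 peaks in iTreg replicates 1 and 2 and 78670 and 67743 in iTreg+IL-4 replicates 1 and 2. For each peak a significance was listed, taken to be −log10 q, together with a height in fragments, and neither was adjusted for depth. Read numbers are not part of such lists, so the depth is unknown, and a missing peak means only that no enrichment passed the caller's threshold. Because heights and q-values grow with depth, each peak was given a percentile, the percent of peaks in its own list with a lower −log10 q, and 100 would be the top of the list. A promoter peak lay within 1 kb of an annotated start site of the gene, and a gene with several took its highest. Promoter peaks were present in all 4 libraries for all 10 CD4 T cell markers examined, with Cd4 itself at a low percentile (33.7 and 12.0 in iTreg, 34.5 and 27.7 in iTreg+IL-4). Of B cell markers, Cd79a had no promoter peak, Pax5 (84.4 and 81.9 in iTreg, 87.7 and 85.0 in iTreg+IL-4) and Ebf1 (84.0 and 74.6, then 81.8 and 77.9) had one in all 4 libraries, and Ms4a1 in 3 (28.0 in iTreg replicate 2, 29.6 and 4.84 in iTreg+IL-4). The part of such cells in the results was not tested. Lyz2 and Csf1r of myeloid cells had no promoter peak in any library. Of 6 myeloid markers, 4 and 3 had a promoter peak in the iTreg libraries and 4 in each iTreg+IL-4 library, of 3 NK cell markers 1 in a single iTreg+IL-4 library, and of 2 CD8 T cell markers 2 in replicate 1 and 1 in replicate 2 of both groups. In bulk samples, fewer open cells and less opening per cell cannot be told apart.

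A resting T cell that meets antigen leaves quiescence and enters a rapid series of divisions. In G1, D-type cyclins with Cdk4 and Cdk6, and then cyclin E with Cdk2, inactivate the retinoblastoma protein and free E2F factors to transcribe genes for DNA synthesis. Orc1, Cdc6 and Cdt1 load the Mcm2 to Mcm7 helicase on DNA, the GINS proteins help to activate it, and polymerases then copy the strands. Genes of G2 and mitosis are switched on later, many of them through CCAAT boxes bound by NF-Y and through the cell cycle genes homology region (CHR), the element on which the DREAM and MuvB complexes sit. CDK inhibitors such as p21, p27 and the INK4 proteins hold this machinery back.

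Some of the promoters hold the letters by which those factors are known, and 7 are shown as examples that hold all, some or none of the kinds. The sequences are RefSeq promoter sequence on mm10 (GRCm38), read 5′ to 3′ on the gene's strand and ending at the base before the start site, and only bases that no annotated exon covers are printed. Capitals mark matches on either strand to the E2F letters (TTTCCCGC, TTTCGCGC, TTTGCCGC or TTTGGCGC), the CHR letters (TTTGAA or TTCGAA) or CCAAT. Adjoining or overlapping matches run together. The first 3 belong to the helicase and its loading, the next pair to mitotic chromosomes, and the last pair to an E2F factor and to thymidylate synthase.
Mcm6 (chr1:128359706-128359855, minus strand): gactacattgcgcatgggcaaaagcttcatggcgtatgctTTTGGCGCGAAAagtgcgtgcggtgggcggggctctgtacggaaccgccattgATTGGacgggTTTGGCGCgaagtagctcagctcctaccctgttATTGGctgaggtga
Mcm5 (chr8:75109359-75109508, plus strand): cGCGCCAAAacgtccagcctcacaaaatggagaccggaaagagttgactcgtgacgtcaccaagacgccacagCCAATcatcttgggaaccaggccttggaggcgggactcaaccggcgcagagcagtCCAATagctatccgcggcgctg
Cdc6 (chr11:98908001-98908150, plus strand): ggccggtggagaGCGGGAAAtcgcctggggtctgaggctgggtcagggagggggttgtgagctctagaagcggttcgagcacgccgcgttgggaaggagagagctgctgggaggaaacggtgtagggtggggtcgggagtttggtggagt
Top2a (chr11:99024190-99024339, minus strand): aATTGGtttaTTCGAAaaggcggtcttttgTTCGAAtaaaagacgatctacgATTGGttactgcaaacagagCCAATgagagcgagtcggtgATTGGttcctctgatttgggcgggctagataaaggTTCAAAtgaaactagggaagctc
Mki67 (chr7:135716380-135716529, minus strand): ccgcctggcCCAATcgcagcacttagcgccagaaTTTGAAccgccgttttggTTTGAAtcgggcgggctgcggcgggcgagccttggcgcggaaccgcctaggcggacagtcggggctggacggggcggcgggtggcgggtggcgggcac
E2f3 (chr13:29986064-29986213, minus strand): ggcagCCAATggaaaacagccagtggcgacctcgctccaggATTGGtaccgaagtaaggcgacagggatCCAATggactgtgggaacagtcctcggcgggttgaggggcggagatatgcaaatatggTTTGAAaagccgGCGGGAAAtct
Tyms (chr5:30073626-30073775, minus strand): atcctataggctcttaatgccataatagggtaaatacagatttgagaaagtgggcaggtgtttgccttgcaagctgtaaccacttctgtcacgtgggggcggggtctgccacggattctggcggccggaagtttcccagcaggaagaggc
In these stretches Mcm6 held 3 E2F matches and 2 CCAAT matches, with 2 of the E2F matches overlapping in a single run. Mcm5 held 1 E2F match and 2 CCAAT matches, and Cdc6 held 1 E2F match alone. The Cdc6 stretch ends at a start downstream of the gene's first annotated start (chr11:98907801). No peak covered its E2F match whole in iTreg replicate 2. Top2a held 3 CHR and 4 CCAAT matches, and Mki67 held 2 CHR matches and 1 CCAAT match. E2f3 held all 3 kinds, with 1 E2F, 1 CHR and 3 CCAAT matches. Tyms held none in the stretch printed.

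RefSeq windows from 250 bases before to 50 after a start site were at hand for 34 of the 43 genes, in 41 windows that all matched the genome base for base. The 9 without a window were Gins1, Gins2, Gins4, Mcm4, Pole, Ccnd2, Ccne2, Ccna2 and Aurkb. E2F letters were present in 13 of the 34 genes (38.2%), against 3.32% of 16522 protein-coding genes with a window and 4.62% of the 10260 that also had a promoter peak in all 4 libraries. CHR letters were present in 11 genes (32.4%, against 19.4% and 16.1%), and all 11 also held CCAAT, a combination found in 9.02% of all genes. CCAAT was present in 26 genes (76.5%, against 42.1% and 42.7%).

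By role the letters were unevenly spread. E2F letters were found in 8 of 10 genes of the pre-replication complex and helicase (Mcm3, Mcm5, Mcm6, Mcm7, Cdc6, Cdt1, Orc1 and Gins3) but in 1 of 7 of G2 and mitosis (Cdk1), and in 0 of 5 of DNA synthesis. The others that held them were Cdk2, E2f2, E2f3 and Cdkn2a. CHR letters were found in 6 of 7 genes of G2 and mitosis (Aurka, Bub1, Cdk1, Mki67, Plk1 and Top2a) and in none of the G1 and S phase, DNA synthesis or CDK inhibitor groups. They were also found in 2 of 3 E2F factors (E2f2 and E2f3). In the pre-replication complex and helicase group 3 of 10 genes held them (Gins3, Mcm2 and Mcm7). In wider windows, from 500 bases before to 100 after a start site, CHR letters were found in 38.4% of all genes, with 4 of 5 genes of DNA synthesis, 2 of 5 of G1 and S phase and 2 of 4 CDK inhibitors holding them beside the same number, 6 of 7, of G2 and mitosis. CCAAT was found in all 7 genes of G2 and mitosis, the seventh being Ccnb1. Among the 65 other replication and cell cycle genes with a window, E2F letters were found in 24.6% and CHR letters in 33.8%. These are counts of short words near start sites. No binding was measured. Several of these genes are textbook targets of E2F, so the shares describe the list and were not tested.

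**Figure D1:**
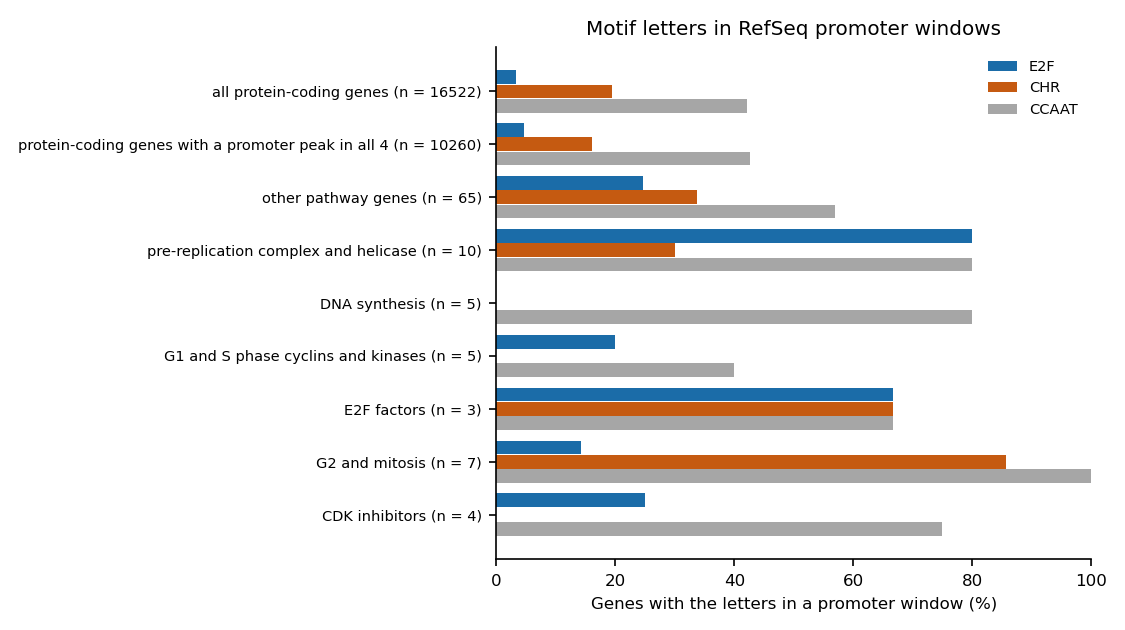
Percent of genes (x axis) whose RefSeq promoter window, 250 bases before to 50 after a start site, held E2F letters (blue), CHR letters (orange) or CCAAT (grey), for all genes, for other genes of the pathway and for each group by role. E2F letters reached 80% of the helicase group, and CHR letters 85.7% of the G2 and mitosis group, against 3.32% and 19.4% of all protein-coding genes.

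All of these genes had a promoter peak in every library, so most of their windows lay under a peak, and the coverage of the letters is given as a description with no comparison. Of 18 E2F matches in the members' windows, 16 were covered whole by a peak in every library, as were 15 of 16 CHR matches and 56 of 58 CCAAT matches, and the other matches were covered in at least 1 library. Counted from the start site, the first bases of the E2F matches of the helicase group lay between positions -165 and 38, and those of the CHR matches of the G2 and mitosis group between -179 and 32.

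The first question for each gene was whether its promoter was open at all, and whether IL-4 decided it. All 43 genes had a promoter peak in all 4 libraries, against 59.9% of all protein-coding genes. No gene had a promoter peak in both iTreg+IL-4 libraries and neither iTreg library (background 0.346%), and none had the reverse pattern (background 0.0684%). The 80 other replication and cell cycle genes also had promoter peaks in all 4 libraries. For 7 of the 43 genes the promoter peak lay within 1 kb of the start site of another protein-coding gene as well, as between Mcm4 and Prkdc or Orc1 and Prpf38a, so that the peak belongs to both.

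These promoter peaks ranked high in their lists. The median percentile over the 43 genes was 95.3 and 93.2 in iTreg replicates 1 and 2 and 94.8 and 95.0 in iTreg+IL-4 replicates 1 and 2. Over the 13148 protein-coding genes with a promoter peak in all 4 libraries it was 90.3 and 87.9, and 90.2 and 89.7. A mean percentile of at least 90 was reached by 30 of 43 genes (69.8%), against 48.2% of those 13148 genes.

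The pre-replication complex and helicase group had the largest share of genes at a mean percentile of at least 90, 13 of 14. By the median of the mean percentiles the 3 E2F genes stood higher, at 97.8 against 96.0. Gins2, a subunit of the GINS complex, had the strongest promoter peak of all 43, at 99.9 and 99.7 in iTreg and 99.9 and 99.8 in iTreg+IL-4. Gins4 of the same complex followed at 99.6, 99.1, 99.7 and 99.5 in the same order. The helicase subunits Mcm2 to Mcm7 ranged in mean percentile from 93.6 (Mcm7) to 97.9 (Mcm4). The loading factors Orc1, Cdc6 and Cdt1 stood at 96.5, 96.1 and 95.0, and Mcm10 at 94.7. Gins3 was the only one of the group below 90, at 89.6 and 85.3 in iTreg and 88.7 and 86.3 in iTreg+IL-4.

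The genes of DNA synthesis were spread more widely. Pcna, the sliding clamp of the polymerases, stood at a mean of 97.7, Rrm1 of ribonucleotide reductase at 95.2 and Pole, the catalytic subunit of polymerase epsilon, at 91.6. Rrm2 and the primase subunit Prim1 were at 88.3 and 83.3. Tyms, which makes thymidylate, was the lowest of all 43 by the mean over the libraries, at 76.5 and 58.8 in iTreg and 72.9 and 72.5 in iTreg+IL-4. In iTreg replicate 1 Cdkn2a ranked slightly below it. The 2 iTreg values of Tyms lay on either side of both iTreg+IL-4 values.

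Among the drivers of G1 and S phase, Cdk4 (mean 98.4) and the cyclin E genes Ccne1 (97.1) and Ccne2 (95.0) were strongest. Cdk6, a partner of the D-type cyclins like Cdk4, was among the 4 lowest genes, at 81.7 and 81.5 in iTreg and 82.6 and 78.4 in iTreg+IL-4. By the mean over the libraries it had the widest promoter peak, 2800 and 1352 bases in iTreg and 3576 and 3025 bases in iTreg+IL-4. The other wide promoters were those of Cdkn2c (1976 to 1984 bases), Mcm7 (1578 to 1648 bases) and Ccnd2 (1396 to 1652 bases), against a median over all genes of 809 to 899 bases by library. In iTreg replicate 2 the peak of Cdk6 was narrower than those of Cdkn2c, Mcm7 and Ccnd2. With IL-4 the promoter peak was wider for 14 of the 43 genes (23.5% of the 13148 genes with a promoter peak in all 4 libraries), narrower for 5 (6.75%) and overlapping for 24, and widths were not adjusted for depth.

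E2f3 and E2f1, E2F factors known as activators, had strong promoter peaks. E2f3 was at 99.6 and 99.0 in iTreg and at 99.6 and 99.0 in iTreg+IL-4, and E2f1 had a mean of 97.8. E2f2, the other activator, stood far lower, at 76.8 and 75.0 in iTreg and 76.6 and 81.5 in iTreg+IL-4.

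In G2 and mitosis, Ccna2, which encodes cyclin A2, led with 99.5 and 98.5 in iTreg and 99.4 and 98.6 in iTreg+IL-4. Aurka (mean 96.4), Top2a (95.6), Ccnb1 (95.5) and the proliferation marker Mki67 (92.3) came next, and Cdk1, the mitotic kinase, stood at 89.7. The spindle checkpoint kinase Bub1 (88.9) and the mitotic kinases Aurkb (83.3) and Plk1 (82.6) had the weakest promoter peaks of the group.

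The CDK inhibitors had open promoters as well. Cdkn1b (p27) had a mean of 94.6, Cdkn2c (p18) 90.1 and Cdkn1a (p21) 89.7, the last over peaks at different places. Cdkn2a was among the 4 lowest of all 43 genes, at 76.4 and 66.0 in iTreg and 81.1 and 73.1 in iTreg+IL-4.

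**Figure D2:**
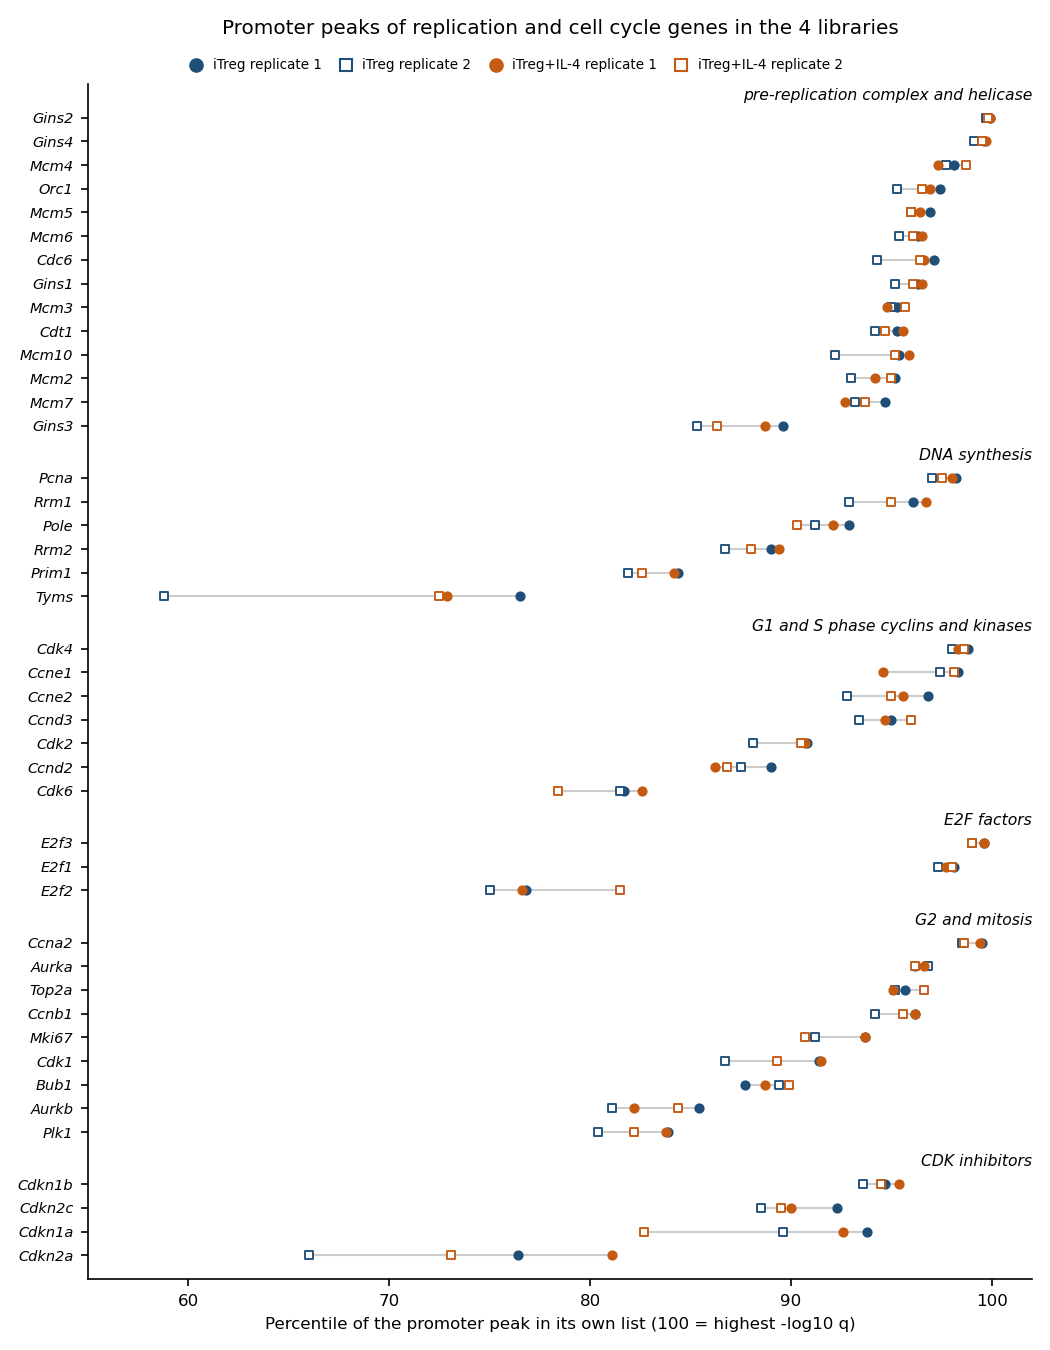
Percentile of the highest promoter peak of each of the 43 genes (rows, grouped by role) in its own list (x axis), with filled symbols for replicate 1, open symbols for replicate 2, blue for iTreg and orange for iTreg+IL-4; grey lines span the 4 libraries. Most genes sit above 90 in every library, the open blue squares of iTreg replicate 2 tend to lie to the left, and blue and orange symbols overlap for 42 of 43 genes.

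Several genes have more than 1 start site, and the sites were not equally open. Cdkn2a encodes p19Arf from an upstream start and p16Ink4a from a downstream start. The values above belong to the upstream start at chr4:89294653, whose window also held the E2F letters, whereas the p16Ink4a start at chr4:89282192 had peaks at percentiles 22.2 in iTreg replicate 1, 25.3 and 0.102 in iTreg+IL-4 replicates 1 and 2 and no peak in iTreg replicate 2. Cdkn1a had no peak at its first start (chr17:29090976) and a pair of peaks by the starts near chr17:29093769. The first of the pair covered those starts, at 85.9 and 82.0 in iTreg and 82.4 and 82.7 in iTreg+IL-4. The other was stronger, at 93.8 and 89.6, then 92.6 and 90.1, and began 924 to 1111 bases downstream. Ccnd3 was far more open at its downstream starts (95.0 and 93.4, then 94.7 and 96.0) than at the upstream starts (67.3 and 55.3, then 70.9 and 60.3). Both starts of E2f2 were open. The first stood at 63.3 and 64.1 in iTreg and 71.3 and 69.0 in iTreg+IL-4, and the conditions did not overlap there in the full lists. Nor did they at an internal start of Rrm1 (chr7:102459973), at 52.2 and 52.3 in iTreg and 54.9 and 55 in iTreg+IL-4. Both starts were picked from all starts of the genes after their values were seen. Their ranks come from lists of unequal length, and neither equal lists nor a share over all starts was computed for single starts. Gins1 had a second open start within the gene, at 92.5 and 93.5 in iTreg and 93.3 and 93.1 in iTreg+IL-4.

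The next comparison asked whether IL-4 moved the promoters in rank. A gene was called higher or lower where both iTreg+IL-4 percentiles lay above or below both iTreg percentiles. With 2 libraries against 2, such a pattern has p = 0.33 in a two-sided exact permutation test, the smallest that this design allows, so that no single gene could pass a threshold of 0.05. The same holds for every count of higher or lower given here. None of the 43 genes was higher with IL-4, against 20% of the 13148 genes. Of the 43, 1 was lower (2.33%), against 5.59%, and the other 42 overlapped. These counts rested on single libraries. Without iTreg replicate 1, 29 genes were higher and 2 lower (68.7% and 10.5% of all such genes), and without iTreg replicate 2, 1 was higher and 25 lower (24.5% and 34.2%). Where instead both same-numbered pairs of libraries had to move the same way, 11 were higher and 6 lower (42.2% and 11.7%). Ranked by height, 3 genes were higher (Cdkn1b, Mcm6 and Mcm10, against 21.0% of all such genes) and none was lower (4.43%).

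The gene that ranked lower was Ccnd2, which encodes cyclin D2, the D-type cyclin of early T cell activation (ENSMUSG00000000184.12, chr6:127125162-127152193). Its promoter peak stood at 89.0 and 87.5 in iTreg and at 86.2 and 86.8 in iTreg+IL-4. The means were 88.2 ± 1.08 and 86.5 ± 0.373 (SD, n = 2 each), a difference of -1.73 percentile points (exact permutation test, p = 0.33). Its highest peak measured 1472 and 1396 bases with IL-4 against 1652 and 1624 without, widths not being adjusted for depth. The number of its promoter peaks differed as well, 2 and 3 in iTreg and 3 and 1 in iTreg+IL-4. Ranked by height in place of q-value, it stood at 95.4 and 94.3 without IL-4 and at 94.4 and 94.1 with IL-4, and the conditions overlapped.

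The differences of the other genes were within the spread of their replicates. Over the 43 genes the median difference was 0.28 percentile points, against 0.665 over all 13148 genes, and 32 genes had a positive (74.4%, against 72.7%) and 11 a negative difference. The sign of the median depended on the length of the lists. With every list cut to the 56645 peaks of the shortest, the median was -0.157 (all genes -0.0989), 1 gene was higher (Mcm10; 12.6% of all genes) and 6 were lower (Ccnd2, Cdkn2c, Gins3, Mcm5, Mcm7 and Pole; 12.4% of all genes). The median gap between the replicates of a gene was 1.68 points in iTreg and 0.830 in iTreg+IL-4, while the median size of the difference between conditions was 0.557. In iTreg, 41 of 43 genes ranked higher in replicate 1, whose list is longer, than in replicate 2. The same counts were also taken over the 6339 protein-coding genes with a mean percentile of at least 90, where little room is left to move. Of these, 17.4% were higher and 6.61% lower in the full lists. Of the 30 replication and cell cycle genes with such a mean, none was either. Mcm10, Cdkn2c, Mcm5, Mcm7 and Pole, called above with equal lists, are among these 30. Whether the room left near 100 limits such calls was not tested.

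The genes with the largest differences also had replicates far apart. Cdkn2a differed by 5.84 points (71.2 ± 7.35 without and 77.1 ± 5.67 with IL-4, SD, n = 2 each) and Tyms by 5.06 points (67.7 ± 12.5 and 72.7 ± 0.305). Cdkn1a, the gene of p21, differed by -4.05 points, at 93.8 and 89.6 in iTreg and 92.6 and 82.7 in iTreg+IL-4. These values compare different peaks. In 3 libraries the reported peak was the downstream one of the pair (chr17:29094705-29095914 in iTreg+IL-4 replicate 1), which began 924 to 997 bases from the start. In iTreg+IL-4 replicate 2 it began 1111 bases away, outside the 1 kb window, and the peak on the start (chr17:29093503-29093989) was taken in its place. In all 3 genes the conditions overlapped.

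**Figure D3:**
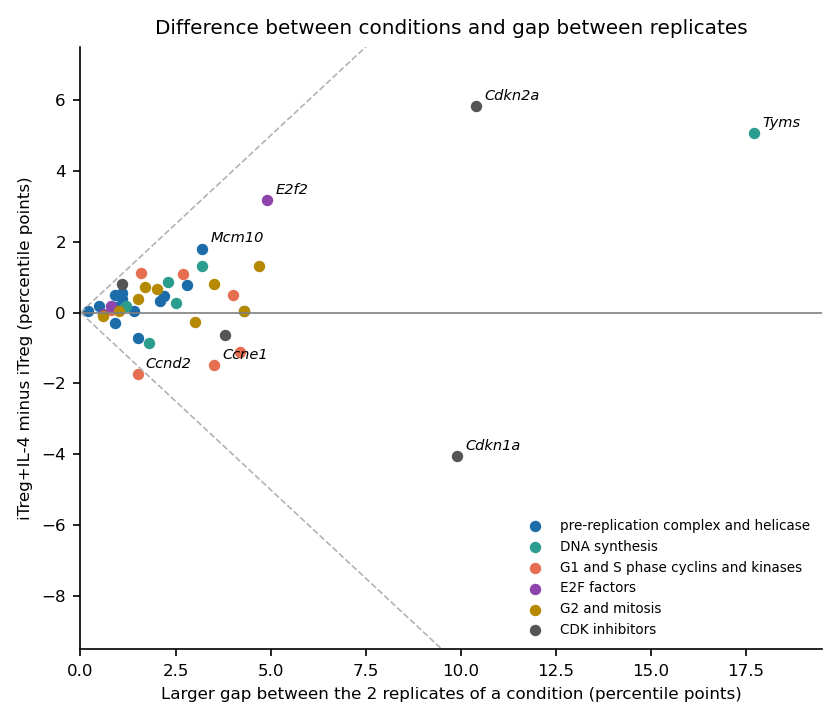
Difference between the condition means of the promoter percentile (y axis, iTreg+IL-4 minus iTreg) against the larger of the gaps between the 2 replicates of a condition (x axis), both in percentile points, 1 point for each gene, coloured by role; on the dashed lines the difference equals that gap. Ccnd2, at -1.73 with a gap of 1.53, is the only gene outside the lines, and Tyms, Cdkn2a and Cdkn1a combine large differences with large gaps, the values of Cdkn1a coming from different peaks.

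Of the 80 other replication and cell cycle genes, 16 were higher with IL-4 (20%, as over all genes), 7 were lower (8.75%, against 5.59%) and 57 overlapped. These calls come from the full lists, which differ in length. Equal lists and left-out libraries were not tried for these 80 genes. Among those that were higher, the largest differences were those of Rfc4, a subunit of the clamp loader (92.7 and 88.5, then 94.7 and 93.7), the CDK inhibitor gene Cdkn1c (87.0 and 86.3, then 88.7 and 90), and Prim2, the large primase subunit (85.1 and 83.0, then 85.4 and 88.1). Among those that were lower they were those of Cdc7, a kinase that fires origins (89.2 and 89.3, then 87.0 and 88.8), Rpa2 of the single-strand binding protein (97.3 and 97.0, then 95.6 and 96.3), and Wdhd1 (96.9 and 96.9, then 96.5 and 95.1).

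Away from promoters, peaks of the 4 lists that shared a base were merged into regions, and a region was called distal to a gene where it lay within 20 kb of the gene and more than 1 kb from the start site of any gene. The 43 genes had 208 such regions, 64 in introns, 14 touching exons, 61 upstream and 69 downstream. Proximity alone links a region to a gene, and some regions lie inside neighbouring genes. Of the 208, 101 had a peak in all 4 libraries (48.6%, against 44.0% of 53770 distal regions near protein-coding genes) and 57 in a single library (27.4%, against 24.9%). The median was 4 regions for each gene, or 0.581 for each 10 kb searched, against 2 and 0.354 over all protein-coding genes.

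By number, the genes of a G1 kinase and of a D-type cyclin, which are long, had the most regions. Cdk6 had 33 in a searched stretch of 230 kb, 18 of them in all 4 libraries, and Ccnd3 had 18 in 135 kb, of which 10 were in all 4. For each 10 kb searched, Cdc6 (1.60) and Aurkb (1.52) stood above Cdk6 (1.44), E2f2 (1.41), Mki67 (1.35) and Ccnd3 (1.34). Cdc6, E2f2 and Mki67 had 9 each, with 6, 5 and 3 in all 4, and all 7 regions of Aurkb were called in all 4. E2f1 and Bub1 had none (4.65% of the 43, against 23.1% of all protein-coding genes), and 12 genes, these included, had none that was called in all 4 (27.9%, against 42.3%). Genes of all kinds count in these backgrounds, those without an open promoter included. Of the genes with the strongest promoters, Ccna2 had 1 distal region and Gins4 had 2, none of them called in all 4 libraries, while Gins2 and E2f3 had 6 each, of which 3 each were in all 4.

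**Figure D4:**
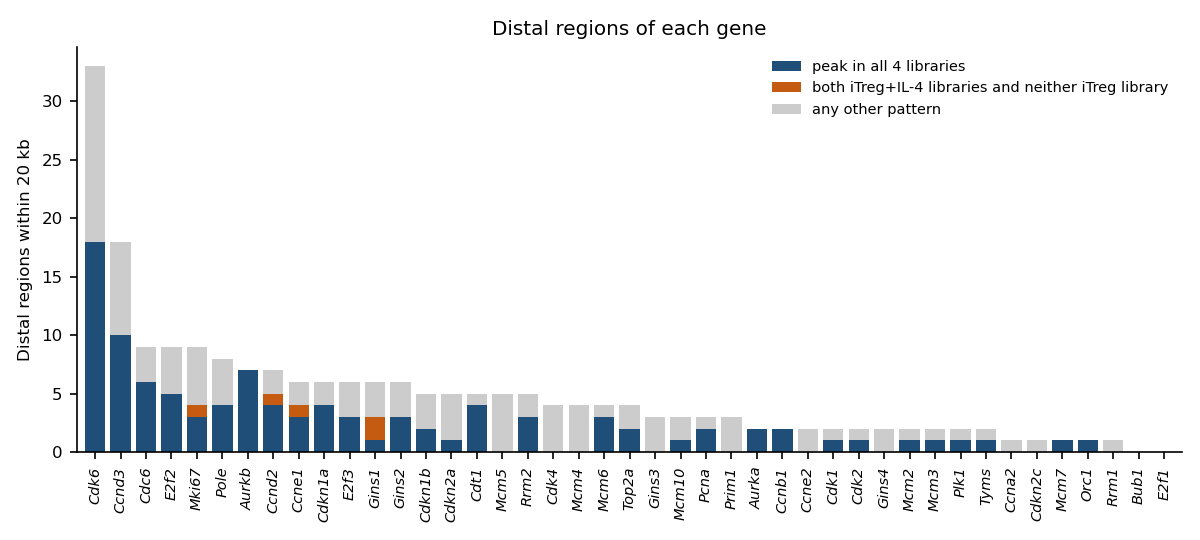
Number of distal regions within 20 kb of each gene (bars, y axis), split into regions with a peak in all 4 libraries (blue), in both iTreg+IL-4 libraries and neither iTreg library (orange) and in any other pattern (grey). Cdk6 (33) and Ccnd3 (18) stand apart from the rest, and orange segments occur at Gins1, Ccne1, Ccnd2 and Mki67.

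By the mean over the libraries, the strongest distal region lay 13960 bases from the nearest start of Ccne1, downstream of the gene (chr7:38084646-38086172), with percentiles of 99.0 and 98.8 in iTreg and 97.8 and 98.7 in iTreg+IL-4. It ranked higher than the promoter peak of Ccne1 itself in each of the libraries. The next was 19727 bases upstream of Mki67 (chr7:135735553-135736623), at 97.2, 96.8, 97.6 and 97.1. A Cdk6 region given next ranked above it in both replicate 1 libraries, and above the Ccne1 region in iTreg+IL-4 replicate 1. Within introns of Cdk6, regions at chr5:3460406-3461514 (97.4, 93.1, 98.5 and 94.1), chr5:3494185-3495155 (96.3, 87.2, 97.0 and 92.4) and chr5:3477656-3478507 (94.0, 87.9, 95.8 and 89.4) all ranked above the Cdk6 promoter in every library. Ccnd3 had 3 regions with percentiles from 88.9 to 94.9 within 26440 bases of its upstream starts, while its upstream promoter stood between 55.3 and 70.9.

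**Figure D5:**
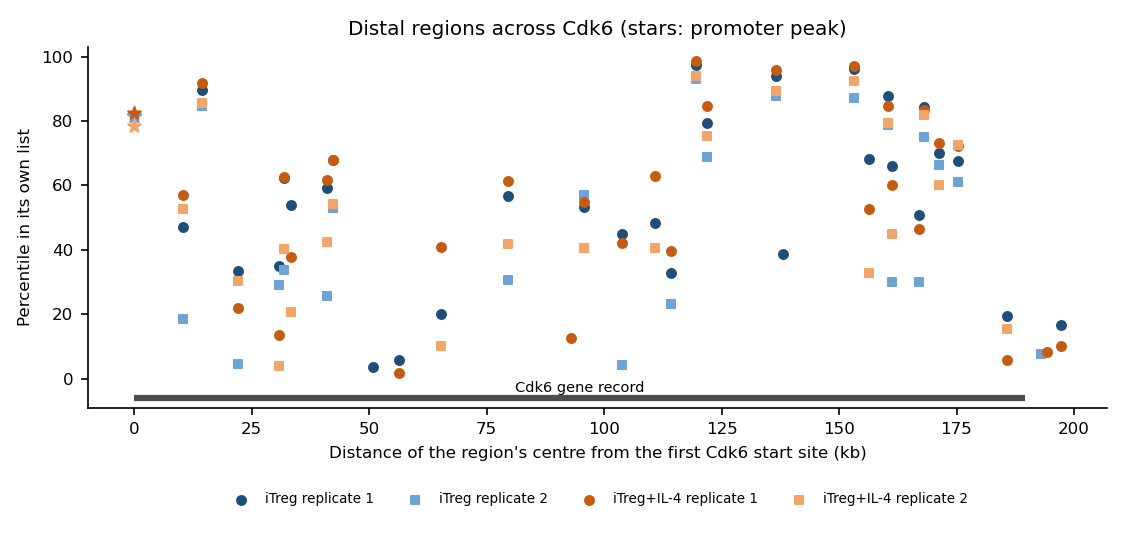
Percentile of each distal region of Cdk6 in its own list (y axis) against the distance of the region's centre from the first start site in kb (x axis), with 1 symbol for each library in which the region had a peak; stars mark the promoter peak and the bar the gene record. Regions in the second part of the gene reach percentiles above 90, over the promoter at 78.4 to 82.6.

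Between conditions, 5 of the 208 distal regions had a peak in both libraries with IL-4 and in neither library without it, 3.08% of all distal regions having that pattern, and 0 had the reverse pattern (background 0.731%). With a library left out, the first count ranged from 9 of 201 (background 4.03%) to 27 of 187 (16.1%). The reverse ranged from 0 of 202 (1.58%) to 22 of 201 (9.54%). Of the 101 regions called in all 4 libraries, 13 were higher with IL-4 (12.9%, against 20.2%), 7 were lower (6.93%, against 4.45%) and 81 overlapped, with a median difference of 2.26 points against 3.36 over all such regions. These ranks depended on single libraries and on the length of the lists. Without iTreg replicate 1, 70 of 104 regions were higher and 11 lower (73.3% and 8.36% of all such regions), with a median difference of 6.95 points (8.50 over all). Without iTreg replicate 2, 21 of 123 were higher and 52 lower (24.4% and 36.7%), with a median difference of -2.30 points (-1.65 over all). With the replicate numbers as pairs, 41 of the 101 were higher and 15 lower (44.4% and 11.5%). With lists of equal length, a check added, like these, after the values had been seen, 90 regions were in all 4 libraries, 10 were higher (15.1% of all such regions), 10 were lower (11.7%), and the median difference was -0.317 (0.244 over all). Of the 13 regions first called higher 5 were still higher, and of the 7 first called lower 1 was still lower.

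The 5 regions called only with IL-4 were weak in their lists. They were 2 at Gins1, 1 inside the neighbouring gene Abhd12 (chr2:150894589-150895112, percentiles 16.1 and 37.0) and 1 in a Gins1 intron (chr2:150915166-150915377, 8.04 and 20.2), 1 in a Ccne1 intron (chr7:38104207-38104416, 43.5 and 34.3), 1 upstream of Ccnd2 (chr6:127162940-127163136, 20.7 and 21.0) and 1 over an exon of Mki67 (chr7:135696680-135697360, 7.47 and 4.84). The promoters of these 4 genes were open with and without IL-4. STAT6, the factor that IL-4 activates, binds sites in which TTC and GAA are separated by 4 bases of any kind. This pattern, which reads alike on both strands, was looked for in a window of 200 bases at the middle of every distal region, a search added after the calls had been seen. It was present in 2 of the 5, against 13.2% of the 1657 such regions near all protein-coding genes, 6.39% of all 53770 distal regions and 7.21% of the 208. With 5 regions these counts bear no comparison, and binding was not measured. Outside its middle window the region at Mki67 held 2 matches, and it is not printed because it touches an exon. The regions with the pattern in the middle window are shown on the plus strand of mm10, with the match in capitals.
Gins1 intron (chr2:150915166-150915377): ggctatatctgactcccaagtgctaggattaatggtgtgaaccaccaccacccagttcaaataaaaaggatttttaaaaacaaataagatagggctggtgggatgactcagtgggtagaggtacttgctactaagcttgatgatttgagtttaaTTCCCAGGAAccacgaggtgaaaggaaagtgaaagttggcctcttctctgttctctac
Ccne1 intron (chr7:38104207-38104416): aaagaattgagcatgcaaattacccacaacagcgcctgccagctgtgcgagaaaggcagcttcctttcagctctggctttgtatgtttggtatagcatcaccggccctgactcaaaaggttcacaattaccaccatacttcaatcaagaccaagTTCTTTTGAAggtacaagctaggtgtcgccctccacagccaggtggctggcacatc

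Among the regions open in all 4 libraries, the largest differences were in weak regions. A region upstream of Ccnb1 (chr13:100795451-100795766) stood at 34.6 and 15.3 in iTreg and at 56.4 and 41.3 in iTreg+IL-4, a difference of 23.9 points. With lists of equal length it was again higher, at 11 and 15.3, then 39.5 and 29.8. In Cdk6 introns, a pair of regions ranked higher with IL-4, the first at chr5:3351740-3352100 (47.1 and 18.6, then 57.1 and 52.7) and the other, a stronger one, at chr5:3516592-3517129 (67.7 and 61.2, then 72.4 and 72.5). Both were higher with equal lists too, at 28.0 and 18.6, then 40.4 and 43.4, and at 56 and 61.2, then 61.6 and 67.2.

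Other calls were lost with equal lists. An intron region of Cdk6 (chr5:3372106-3372457) ranked lower with IL-4 in the full lists, at 35.0 and 29.2 in iTreg and 13.5 and 3.87 in iTreg+IL-4, as did a region downstream of Cdkn1a (chr17:29104396-29105309), at 31.6 and 42.3, then 3.66 and 25.0. Neither was in all 4 lists once they were of equal length. A region upstream of Ccne1 (chr7:38123666-38124681) stood at 33.1 and 40.9 in iTreg and 50.7 and 60.7 in iTreg+IL-4, a difference of 18.7 points. With equal lists the conditions overlapped there, at 8.95 and 40.9, then 31.5 and 53.1, while the difference was 17.3 points. The intron regions of Ccnd2 (chr6:127142106-127142983) and Ccnd3 (chr17:47521415-47522060) also overlapped with equal lists. In the full lists they stood at 74.7 and 71.8, then 75.6 and 82.1, and at 82.9 and 78.7, then 84.3 and 84.5. The strong region downstream of Ccne1 was lower in both settings, with a difference of -0.645 points in the full lists and -1.02 in those of equal length.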

How the data were processed

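ATAC-seq was performed by the authors on sorted mouse CD4+ T cells of 2 conditions with 2 libraries each, sequenced on the BGISEQ-500 platform. Per the methods and the submitters' processing notes, read pairs were mapped to mm10 with Bowtie2 2.2.5 and peaks were called in each library with MACS2 2.1.2. Bedtools 2.16.2 is also named, with no role. Replicates were not pooled. The removal of duplicate or mitochondrial reads and a shift for the transposase are not given in the sources used here, and such steps could change heights and edges. The lists deposited by the authors have no header, and their values after the coordinates were taken, from their ranges, to be MACS2's −log10 q (lowest 1.310, just under a q of 0.05). The last column that the authors deposited was taken in the same way to be the signal at the top of each peak, in whole fragments. Neither was scaled between libraries, so both were compared only as percentiles within a list. Widths were compared in bases as listed.

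Start sites, genes and exons came from GENCODE vM21, on the same build, and promoter windows from RefSeq (GRCm38). Groups followed the treatment labels. Peaks within 1 kb of a start site of a gene were its promoter peaks, and regions merged over the 4 lists were distal as defined in the results. Conditions were compared by presence in both libraries of a condition and by percentile ranges that do not overlap, with the exact two-sided permutation test. Same-numbered libraries were not treated as paired. A cell type marker and the count of its list are not reported here. Genes given in full were those with the largest shifts, the 4 highest and 4 lowest and the 4 widest promoters, the 5 genes with the most distal regions and every distal region called in 1 condition only. Some further start sites and distal regions were chosen after their values were seen. The members, gene lists and most of the alternatives were chosen with earlier results of these data known. Analyses used Python 3.11.15, numpy 2.4.6, pandas 2.3.3, scipy 1.17.1 and pysam 0.24.0. The promoter calls were run on simulated lists, in which all 200 planted genes were recovered. The planted changes were made far larger than the replicate noise, so this checks the code only. It does not show how well small changes are found or how often unchanged genes are called. The alternatives changed the ranking, list length, windows, transcripts and libraries. Read depth per library is unknown, which limits the precision of any call of a missing peak.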

Additional observations from a re-analysis of the deposited data

How the results depend on the processing

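All 43 genes kept a promoter peak in all 4 libraries, and no promoter was specific to either condition, under every list length, window, transcript set and left-out library tried. The counts of genes higher and lower with IL-4 (0 and 1) were not stable. With the shares of all genes in brackets, they were 3 and 0 when ranked by height (21.0% and 4.43%), 1 and 7 within regions called in all 4 libraries (12.3% and 12.7%), 1 and 6 with lists of equal length (12.6% and 12.4%), 2 and 3 within promoter peaks (19.9% and 7.35%; chosen after seeing the data), and 1 and 1 with protein-coding transcripts only (19.9% and 5.68%). The cause was not tested. With the replicate number as a block they were 11 and 6, against 42.2% and 11.7% of all genes. Deviations of same-numbered libraries correlated at r = 0.424 over 13148 genes, but 2 numbers do not establish a pairing. Replicate 2 also had the shorter list in both groups, and the part of list length in r was not tested. Left-out libraries moved them to between 1 and 29 higher and between 2 and 25 lower: 29 and 2 without iTreg replicate 1, 1 and 25 without iTreg replicate 2, 6 and 8 without iTreg+IL-4 replicate 1, and 11 and 6 without iTreg+IL-4 replicate 2. A lone library cannot show its own spread, and over all genes the same settings gave 68.7%, 24.5%, 33.3% and 47.5% higher and 10.5%, 34.2%, 16.1% and 16.4% lower. Ccnd2 was lower in each of these but the ranking by height. The median difference ranged within the replicate spread of 1.07 points and was highest, at 0.980, without iTreg replicate 1 (all genes 1.60). It was negative with equal lists (-0.157, all genes -0.0989), within shared regions (-0.205, all genes -0.142) and without iTreg replicate 2 (-0.369, all genes -0.164).

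Distal regions in all 4 libraries numbered 67 of 146 within 10 kb (43.7% of all distal regions), 175 of 358 within 50 kb (44.2%) and 48 of 99 in the upper part of each list by the median (48.5%, which is also the share of the 99). Where a peak had to cover at least 50% of its region, they numbered 73 of 208 (32.1%). Those called only with IL-4 were 3 of 146 within 10 kb (3.14% of all distal regions), 9 of 358 within 50 kb (3.04%), 2 of 99 in the upper part (2.86%) and 3 of 156 with equal lists (2.47%). Under the 50% rule they were 7 of 208 (4.28%). With a library left out they were between 9 and 27: 27 of 187 (16.1%) without iTreg replicate 1, 9 of 201 (4.03%) without iTreg replicate 2, 12 of 191 (8.70%) without iTreg+IL-4 replicate 1 and 24 of 202 (12.8%) without iTreg+IL-4 replicate 2. Those called only without IL-4 were 1 within 50 kb (0.76%) and 1 with equal lists (1.19%), and in the same order 9 (3.49%), 22 (9.54%), 6 (3.41%) and 0 (1.58%). Distal regions ranked higher and lower (13 and 7 of 101) numbered 41 and 15 with the replicate block (44.4% and 11.5%), and between 21 and 70 higher and 11 and 52 lower with a library left out (all added after seeing the data): 70 and 11 of 104 without iTreg replicate 1 (73.3% and 8.36%), 21 and 52 of 123 without iTreg replicate 2 (24.4% and 36.7%), 24 and 19 of 100 without iTreg+IL-4 replicate 1 (30.3% and 17.0%) and 47 and 17 of 107 without iTreg+IL-4 replicate 2 (48.7% and 10.5%). Their median difference was 6.95 without iTreg replicate 1 (8.50 over all such regions) and -2.30 without iTreg replicate 2 (-1.65). It was 0.201 without iTreg+IL-4 replicate 1 (1.49) and 4.28 without iTreg+IL-4 replicate 2 (5.65). In windows from 500 before to 100 after the start, CHR letters reached 61.8% of the genes (38.4% of all genes) and CCAAT 88.2% (60.9%), and around peak centres CCAAT reached 52.9% (31.3%). Unknown depth limits every call of a missing peak.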
